A study of Mus musculus with 3 samples.

Results

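The genes described are 46 mouse genes that encode the proteins driving the ribosome through initiation, elongation, termination and recycling, out of 50600 genes in the files. They were taken from a list of names by a rule that reads no measured value, though the list was drawn up with earlier results of these data known, and all 46 were found by gene identifier. The RNA came from primary Th1 (T-helper 1) cells of C57BL/6NJ mice, the CD4 T-cell fate that secretes interferon gamma. The 3 libraries form 1 group, numbered as biological replicates 1, 2 and 3, and carry the same donor record, so no condition could be compared and the spread between them may be partly technical. Per the file headers the cells were sorted and stood at 72 hours, while sex, age and any treatment beyond a CD4 T-cell differentiation protocol were not stated. The labels name the molecule total RNA, whereas the library protocol they link has polyA in its name.

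Translation begins when a small ribosomal subunit carrying initiation factors and the initiator tRNA is brought to the capped end of an mRNA by the eIF4F complex and scans to a start codon. Elongation factors then deliver each aminoacyl-tRNA and move the ribosome along, and release factors free the finished protein at the stop codon. Resting T cells make little protein and raise translation strongly once activated, with eIF4F controlled through the mTOR kinase and its target 4E-BP proteins. Many mRNAs of the translation machinery start with a C followed by a run of C and T bases, the terminal oligopyrimidine tract through which mTOR controls their translation.

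Runs of C and T were looked for near the starts that RefSeq annotates on GRCm38.p6. Terminal tracts of this kind are the sequence feature for which this gene family is known. A run was 8 or more bases, each C or T and the first a C, on the strand of the gene and within 25 bases on either side of an annotated start. It need not begin at the start, as a terminal oligopyrimidine tract does, so the shares that follow do not count such tracts. Promoter sequence was matched for 34 of the 46 genes, and 9 of these 34 (26.5%) held a run, against 2997 of 16469 protein-coding genes (18.2%). The windows below are 30 bases each, with the longest run near the start in capitals. A shorter stretch that also meets the rule, as in Eif3l, is left in lower case. They are shown for the most abundant gene and for members of eIF3 and eIF2B, the complexes whose subunits are compared further on. Only genes with a run are shown, so the windows are not typical of these groups. Eif3a, Eif3b, Eif3c, Eif3d, Eif3g, Eif2b1 and Eif2b4 were matched and held none, nor did the next most abundant genes, Eef2 and Tpt1. Eef1a1 lies at chr9:78481710-78481739 on the minus strand, Eif3l at chr15:79075217-79075246 on the plus strand, Eif3f at chr7:108934404-108934433 on the plus strand, Eif3m at chr2:105017027-105017056 on the minus strand, Eif3k at chr7:28981855-28981884 on the minus strand and Eif2b5 at chr16:20498797-20498826 on the plus strand.
Eef1a1: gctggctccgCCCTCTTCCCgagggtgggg
Eif3l: tcttcttccgCTCTCTCCCacgggcttctg
Eif3f: ttctaggCTCTCTCTCTTTCTCggcaagat
Eif3m: acggcaccgCTCTCTTTTCCggtcggcgtg
Eif3k: ctgaaagcgCCTTTCCCTTTgccttccttg
Eif2b5: gcattCCTTCCTCTTTCTCTCCCTgcaact
Counted from the annotated start, the run began at -5 in Eef1a1, -4 in Eif3f and 4 in Eif3l. It began at -20 in Eif3m, -15 in Eif2b5 and 13 in Eif3k. The run of Eif3m, of 11 bases, lay wholly before that start. The other 3 genes with a run were Abce1, Eif2b2 and Eif4e. The 9 genes with a run had a median level of 89.0 TPM, and the 25 matched genes without one 158 TPM, so a run near an annotated start did not go with a higher level. An annotated start need not be the start used in these cells, and the absence of these letters from a window says nothing about how the mRNA is controlled.

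The deposited values were counts of fragments per gene. They summed to 4482916, 266790 and 3733531 in replicates 1, 2 and 3, so replicate 2 was 16.8-fold shallower than replicate 1. Levels are given as TPM, counts divided by exon length and scaled to the same total in each library. A count of 3 in a gene of the members' median exon length equalled 0.430, 6.96 and 0.442 TPM in replicates 1, 2 and 3. All 5 Th1 markers and all 4 general T-cell markers exceeded 1 TPM, with the Th1 list summing to 1209, 980.5 and 541 TPM, and Ifng alone at 840.5, 634 and 339 TPM. Cd8a, Ms4a1, Lyz2, Adgre1, S100a8 and Il17a had no count in any library, while Foxp3, a regulatory T-cell marker whose exons face another gene, stood at 61.7, 66.0 and 66.8 TPM. The share of counts in genes whose exons face exons of a gene on the other strand was 51.7%, 55.1% and 66.5%, and the headers record that counting used strand option 1. Which strand of the RNA that option counts was not tested, and it may be the strand opposite to the genes' mRNA. In that case every TPM below is a level of fragments in the antisense orientation. Of the mitochondrial protein-coding genes, which lie on one strand but for mt-Nd6, that gene had 18316, 1673 and 13631 counts over the libraries, and mt-Co1 10721, 546 and 5027 counts. Every level below, whatever gene it is printed for, is therefore one of the counted strand and not shown to be one of mRNA.

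Every one of the 46 genes was measured above 10 TPM on average, 27 of them above 100 TPM, and Eef1a1, Eef2 and Tpt1 at 1037 TPM or more. Of all 21764 protein-coding genes, 10408 (47.8%) reached 1 TPM, and 8.55% of those reached 100 TPM. The median member stood at 136 TPM, against 12.8 TPM for the coding genes detected, or 7.05 against 3.65 as the median of mean log2(TPM + 1). The lowest member, Eif2b3, was above 58.4% of the detected coding genes, and the median member above 94.0% of them. Together the members held 1.86%, 1.56% and 1.03% of the TPM in replicates 1, 2 and 3, a mean of 1.48 ± 0.419% (SD, n = 3). In bulk RNA, fewer cells with a transcript and less of it per cell cannot be told apart.

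**Figure D1:**
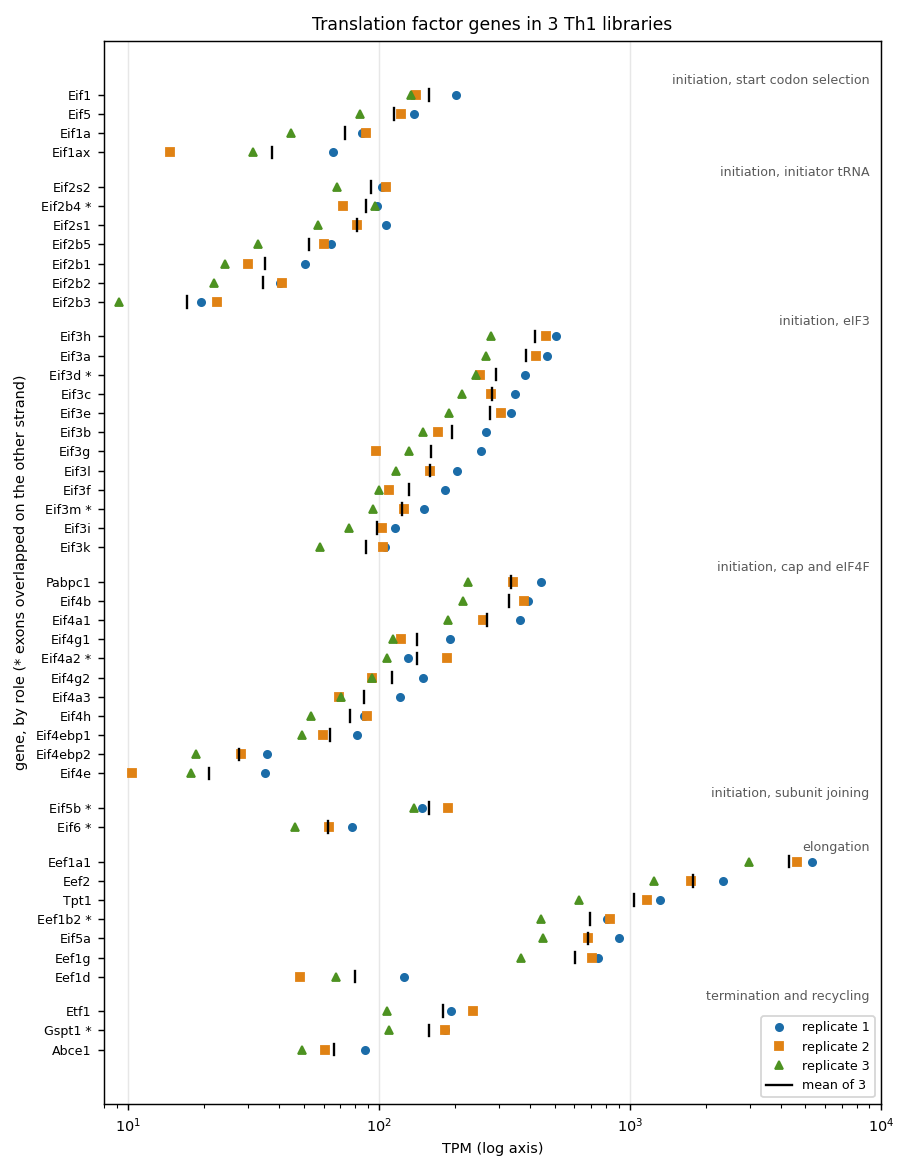
TPM on a log axis for each of the 46 genes, grouped by role, with 1 symbol for each of the 3 libraries and a bar at their mean; an asterisk marks genes whose exons face an exon on the other strand. Eef1a1, Eef2 and Tpt1 lie at 1037 TPM or more on average, and 40 of the 46 genes are lowest in replicate 3.

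Elongation factors were the most abundant group. The 7 genes held 62.3%, 63.1% and 60.0% of the members' TPM in replicates 1, 2 and 3, and Eef1a1 alone 28.7%, 29.8% and 28.9%. Eef1a1, which delivers aminoacyl-tRNA to the ribosome, lies at chr9:78478449-78489151 on the minus strand and reached 5332, 4641 and 2980.4 TPM in replicates 1, 2 and 3, a mean of 4318 ± 1208 (SD, n = 3). Eef2, the GTPase that moves the ribosome by a codon, lies at chr10:81176631-81182498 on the plus strand and had 2352, 1749 and 1246 TPM. Eef1a1 was above Eef2 in each of the 3 libraries, by 1.28 ± 0.12 on the log2(TPM + 1) scale (SD, n = 3; exact two-sided sign-flip permutation p = 0.25, the smallest that 3 libraries allow). The ratio of the 2 genes was thus steady while both levels were lowest in replicate 3. Tpt1, the translationally controlled tumor protein that binds eEF1A, stood at 1314, 1171 and 626 TPM, a mean of 1037 ± 363 (SD, n = 3). Eif5a, which eases peptide bond formation at difficult residues such as runs of proline, had 906, 681 and 448 TPM. Its place in the order of mean levels, between Eef1b2 and Eef1g, was within the replicate spread of these neighbours.

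The eEF1B complex reloads eEF1A with GTP, and its 3 genes did not have like levels. Eef1b2 and Eef1d encode exchange subunits and Eef1g a scaffold subunit. Eef1b2 had 811, 831 and 440.4 TPM in replicates 1, 2 and 3, and Eef1g 744, 703 and 367 TPM. Eef1d had 125, 48.6 and 67.4 TPM, below both of the other two in every library. Eef1b2 exceeded Eef1d by 3.15 ± 0.80 on the log2(TPM + 1) scale (SD, n = 3; exact sign-flip permutation p = 0.25), and by 2.19 with the length of the principal transcript of each gene. The ratio of the highest to the lowest mean level in the complex was 8.64 with the exon length in the files, which covers all annotated exons of a gene, and 4.42 with the length of the principal transcript. Eef1d is 1 of 11 members whose summed exons were more than 2 times as long as that transcript, here 2.55 times.

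Initiation factor eIF3, the largest initiation factor and a scaffold on the small subunit, was represented by 12 subunit genes. They ranged from 89.0 TPM for Eif3k to 416 TPM for Eif3h, with a median of 178 TPM, and 1 of the 12 passed the test between libraries described below. Eif3h had 506, 463 and 280.2 TPM in replicates 1, 2 and 3. Eif3a, the large core subunit, had 465, 423 and 267 TPM. At the low end, Eif3k, which with Eif3l occupies the edge of the complex, had 105, 103 and 58.2 TPM. The ratio of highest to lowest was 4.80, 4.75 and 4.81 within the 3 libraries. The order nevertheless rested on the length used. With principal transcript lengths the subunits lay between 151 TPM for Eif3f and 403 TPM for Eif3h, a ratio of 2.68, and Eif3k moved to 310 ± 92.9 TPM (SD, n = 3), since its exons sum to 3.49 times its principal transcript. The other subunits averaged 292 ± 77.9 TPM for Eif3d, 277 ± 77.7 for Eif3e, 131 ± 45.5 for Eif3f, 161 ± 82.8 for Eif3g, 97.9 ± 20.1 for Eif3i, 159.8 ± 43.6 for Eif3l and 123 ± 28.1 for Eif3m (SD, n = 3). From Eif3g down to Eif3k, neighbours in the order of means differed by less than the larger SD of the pair. Core subunits Eif3b and Eif3c averaged 196 ± 61.8 and 281 ± 67.4 TPM (SD, n = 3) with the files' lengths, and 222 ± 70.3 and 291 ± 70.0 TPM with transcript lengths.

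The initiator tRNA is carried by eIF2, and eIF2B recharges eIF2 with GTP. Eif2s2, the beta subunit, had 103, 107 and 67.9 TPM in replicates 1, 2 and 3. Eif2s1, the alpha subunit phosphorylated by stress kinases, had 106, 81.3 and 56.8 TPM. The 2 genes differed by 0.20 ± 0.22 on the log2(TPM + 1) scale (SD, n = 3), with Eif2s2 higher in 2 of 3 libraries (exact sign-flip permutation p = 0.5), which is within the spread. This rested on the length used, since with principal transcript lengths the difference was 1.06 and Eif2s2 was higher in 3 of 3 libraries (exact sign-flip permutation p = 0.25). The 5 genes of eIF2B had means of 35.0 ± 13.9 TPM for Eif2b1 (alpha), 34.3 ± 10.8 for Eif2b2 (beta), 17.1 ± 6.99 for Eif2b3 (gamma), 88.3 ± 14.6 for Eif2b4 (delta) and 52.4 ± 17.1 for Eif2b5 (epsilon, the catalytic subunit) (SD, n = 3). Every eIF2B gene but Eif2b4, whose exons face those of Snx17, was below both Eif2s1 and Eif2s2 in each library. This does not extend to the gene of the gamma subunit of eIF2, Eif2s3x, which is not a member. It had 24.3, 26.4 and 10.9 TPM, below every eIF2B gene but Eif2b3 in each library. Eif2b3 had 19.4, 22.6 and 9.19 TPM and was the lowest of the 46 by mean level. Its summed exons are 4.19 times its principal transcript, and with that length it moved to 71.5 ± 29.3 TPM (SD, n = 3), between Eif2b5 and Eif2b4. The ratio of highest to lowest in the complex was 5.03, 3.17 and 10.4 within replicates 1, 2 and 3, and over the means it was 5.18 with exon length and 2.81 with transcript length. Without Eif2b4, the member that faces another gene, its log2 with exon length was 1.62, against 2.37 with it.

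**Figure D2:**
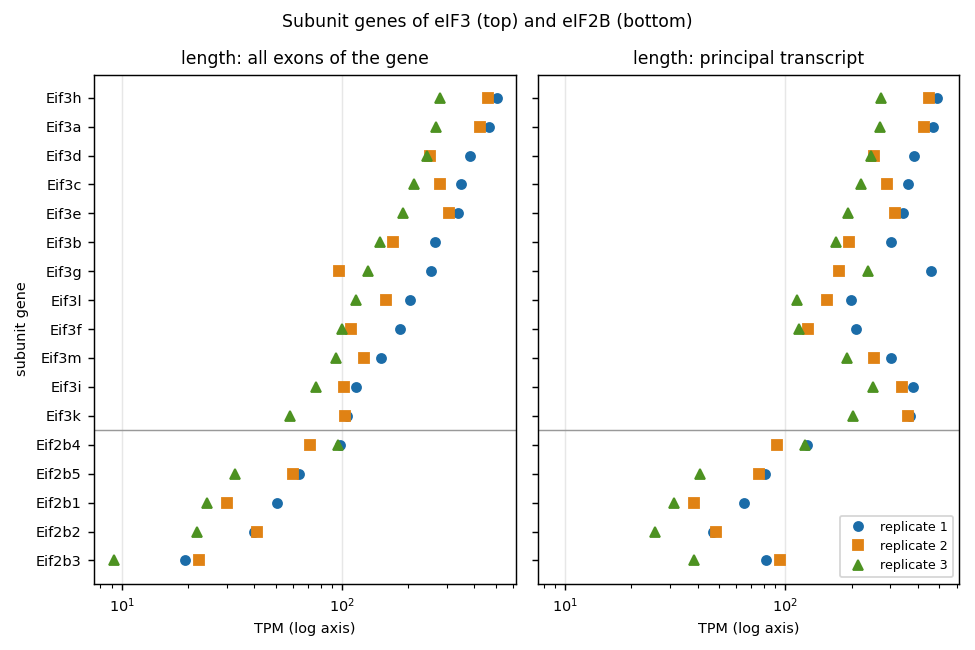
TPM on log axes for the 12 eIF3 subunit genes (top) and the 5 eIF2B subunit genes (bottom) in each of the 3 libraries, with the length of all exons of a gene at left and the length of its principal transcript at right. Eif3k, Eif3i and Eif2b3 move up with the shorter length, and the ratio of highest to lowest within eIF3 is 2.68 there, against 4.68 with all exons.

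The 4 genes for start codon selection ranged from 37.3 TPM for Eif1ax to 159 TPM for Eif1 on average. Eif1, which keeps the scanning ribosome from starting at wrong codons, had 202, 140.2 and 134 TPM in replicates 1, 2 and 3. Eif5, the GTPase-activating protein of eIF2, had 137, 122 and 83.8 TPM. For eIF1A, which works beside eIF1, mice have an X-linked gene, Eif1ax, and an autosomal one, Eif1a, whose coding sequences are identical at 85.6% of 432 bases. Eif1ax had 65.6, 14.7 and 31.5 TPM, and Eif1a 85.7, 88.7 and 44.7 TPM. Eif1ax was below Eif1a in all 3 libraries, with log2 ratios of TPM + 1 of -0.38, -2.51 and -0.49 in replicates 1, 2 and 3, and the mean difference of -1.13 ± 1.20 (SD, n = 3; exact sign-flip permutation p = 0.25) was -0.44 without replicate 2. Only 10 counts lay behind the value of Eif1ax in replicate 2, with a 95% exact Poisson interval of 7.05 to 27.0 TPM. Eif5b, the GTPase that joins the large subunit, had 148, 188 and 137 TPM, and Eif6, which keeps the subunits apart, averaged 62.2 ± 15.9 TPM (SD, n = 3). Both face a gene on the other strand.

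Among the cap-side factors, Eif4e, the gene of the cap-binding protein, and Eif4ebp2 had the lowest levels. Eif4e had 34.9, 10.3 and 17.7 TPM in replicates 1, 2 and 3, a mean of 21.0 ± 12.6 (SD, n = 3). Eif4a1, the main RNA helicase of eIF4F, had 364, 259 and 188 TPM. Eif4g1, the scaffold that joins both, had 191, 122 and 113 TPM. Eif4a1 thus exceeded Eif4e by 3.73 ± 0.68 on the log2(TPM + 1) scale, in 3 of 3 libraries (exact sign-flip permutation p = 0.25), and by 4.76 with principal transcript lengths. Pabpc1, the poly(A)-binding protein that links the tail of an mRNA to eIF4G, was the highest of the 11 cap-side genes at 441, 342 and 226 TPM, a mean of 336 ± 107 (SD, n = 3). The helicase cofactor Eif4b had 391, 378 and 215 TPM, above the other cofactor, Eif4h, at 87.0, 89.2 and 53.6 TPM. Eif4a3, a helicase of the exon junction complex, averaged 86.7 ± 29.4 TPM (SD, n = 3).

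Both genes for repressors of eIF4E, Eif4ebp1 and Eif4ebp2, had a higher level than Eif4e in every library. For Eif4ebp2 the gap was small in replicates 1 and 3, and its mean lay within the spread of Eif4e. It also rested on the length used. With principal transcript lengths Eif4e had 42.1, 12.4 and 21.4 TPM in replicates 1, 2 and 3, above Eif4ebp2 in replicates 1 and 3. Eif4ebp1 had 81.4, 59.9 and 49.2 TPM, against 35.8, 28.1 and 18.6 TPM for Eif4ebp2. Eif4ebp1 exceeded Eif4ebp2 by 1.20 ± 0.15 on the log2(TPM + 1) scale, and Eif4e over Eif4ebp1 was -1.20, -2.43 and -1.42 in replicates 1, 2 and 3, so both directions held in 3 of 3 libraries (exact sign-flip permutation p = 0.25 each). Eif4g2 encodes a relative of eIF4G that lacks the eIF4E-binding part, and its annotated coding sequence of 906 codons starts at GUG in place of AUG. It had 149, 93.6 and 93.3 TPM and was below Eif4g1 by a steady amount, -0.34 ± 0.05 on the log2(TPM + 1) scale (SD, n = 3). The 10 pairs compared gave 8 in which all 3 libraries had the same direction with the files' exon lengths, and none can pass 0.05 with 3 libraries.

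**Figure D3:**
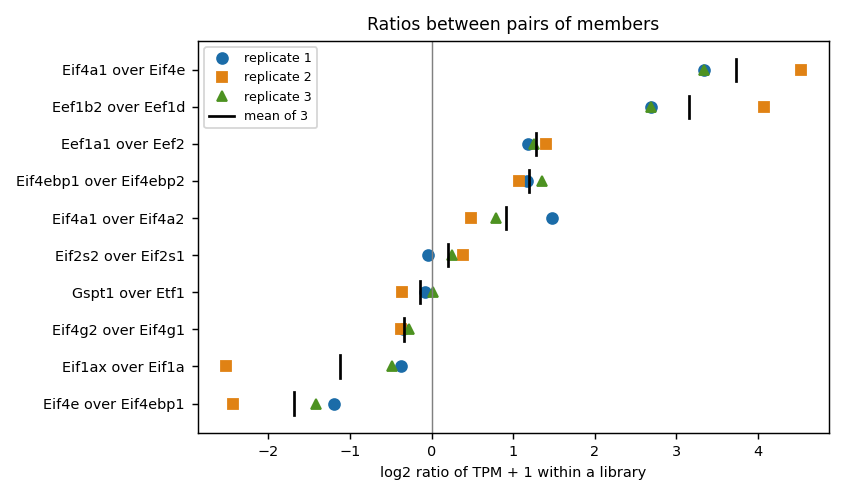
Log2 ratio of TPM + 1 between the 2 genes of each of 10 pairs, with 1 symbol for each of the 3 libraries and a bar at their mean; the line at 0 is equal level. Eif4a1 over Eif4e, Eef1b2 over Eef1d and Eif1ax over Eif1a are spread most, with replicate 2 apart from the other two, while Eif4g2 over Eif4g1 is spread least.

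Eif4a1 and Eif4a2 encode near-identical helicases, and their sequences are shown because reads could be assigned to the wrong gene if the copies were alike over a read length. Their coding sequences were identical at 78.5% of 1215 aligned bases, with a longest shared run of 20 bases. In the window below, coding bases 484 to 603 of Eif4a1 (chromosome 11) and 487 to 606 of Eif4a2 (chromosome 16) from the GENCODE transcripts, 103 of 120 bases are the same and the bases that differ are in capitals.
Eif4a1: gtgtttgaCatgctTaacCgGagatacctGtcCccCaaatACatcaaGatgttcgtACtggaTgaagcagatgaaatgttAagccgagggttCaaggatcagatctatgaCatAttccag
Eif4a2: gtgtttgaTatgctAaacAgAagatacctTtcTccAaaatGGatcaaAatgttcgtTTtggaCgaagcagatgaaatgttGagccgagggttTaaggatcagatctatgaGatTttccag
The differing bases are scattered, and no stretch of over 20 aligned coding bases lacks one. Eif4a1 had 364, 259 and 188 TPM, and Eif4a2 131, 186 and 108 TPM, a difference of 0.91 ± 0.51 on the log2(TPM + 1) scale with Eif4a1 higher in 3 of 3 libraries (exact sign-flip permutation p = 0.25). Eif4a2 also faces Rfc4 over 194 exon bases. Reads can likewise be shared with pseudogenes. At least 90% identity over 50% or more of the coding sequence was found for 22 of the 46 genes, with 57 such copies in all. Eif1 itself had 885, 38 and 572 counts, against 9, 0 and 4 for its 16 copies together. Eef1a1 had 27794, 1495 and 15131 counts, against 89, 17 and 68 for its 8 copies. Tpt1, with a copy of 100% identity, had 6538, 360 and 3036 counts, against 95, 1 and 85 for its 5 copies. The copies thus drew few of the counts in every library. How many fragments of these genes were left uncounted because they map to a copy as well was not tested.

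Termination and recycling factors lay within the range of the initiation factors. Gspt1, the GTPase eRF3, had 182, 184 and 109 TPM in replicates 1, 2 and 3. Etf1, the release factor eRF1 that reads stop codons, had 193, 236 and 108 TPM. Gspt1 over Etf1 was -0.14 ± 0.20 on the log2(TPM + 1) scale (SD, n = 3; exact sign-flip permutation p = 0.5), within the spread, and it was 0.42 with principal transcript lengths. Abce1, which splits the ribosome after termination, was lower at 88.1, 60.6 and 49.1 TPM.

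The members' levels shifted between libraries as a body, while their order stayed close. No member was lowest in replicate 1, 6 were lowest in replicate 2 and 40 in replicate 3, whereas 6.79%, 41.3% and 51.9% of detected coding genes were lowest in replicates 1, 2 and 3. The median member was lower in replicate 3 than in replicate 1 by a log2 ratio of -0.84, against -0.63 for detected coding genes. For the order, Spearman's rho across the 46 genes was 0.946 for the pair 1 and 2, 0.981 for 1 and 3, and 0.958 for 2 and 3. Across detected coding genes it was 0.814, 0.963 and 0.802 for these pairs. Genes are not independent replicates and these values are a description. Much of the shift went with the scaling. TPM was also computed over genes that face no other gene, with 38 members among them. There the median log2 ratio of replicate 3 over replicate 1 was -0.21 for members, against -0.12 for detected coding genes. On that scale 14.9%, 55.5% and 29.6% of detected coding genes without overlap were lowest in replicates 1, 2 and 3. Of the 38 members, 1, 20 and 17 were. Their median coefficient of variation between libraries was 13.4% on that scale, against 36.4% for detected coding genes without such overlap. These coding genes were not matched to the members in level, and counting error is relatively larger at low counts. Over all genes the medians were 136 TPM for members and 12.8 TPM for detected coding genes. Whether the members were steadier than genes of like level was not tested. The shares of genes lowest in each replicate and the rho values of coding genes have the same limit.

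**Figure D4:**
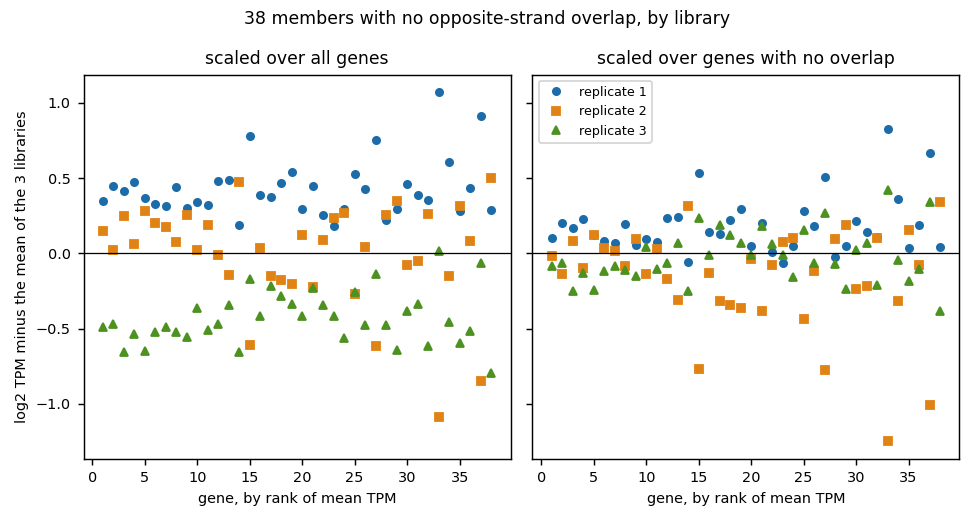
Log2 TPM of each of the 38 genes with no exon facing another gene, minus the mean of its 3 libraries, ordered by mean TPM; at left TPM is scaled over all genes and at right over genes that face no other gene. At left most triangles, replicate 3, lie below 0, and at right the 3 libraries lie closer to 0, with 4 genes whose replicate 2 value stands far below the others.

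Of the 46 genes, 4 differed between libraries both beyond counting error and by a ratio of 2 or more. The chi-square test compared the counts of each gene with TMM-scaled library sizes and called a gene at a Benjamini-Hochberg adjusted p under 0.05 and a highest to lowest ratio of at least 2. It holds counting error only, so a call says that these libraries differ. These 4 make 8.70% of the members, against 29.5% of the 11595 genes tested and 31.2% of genes at or above the members' median count. By the adjusted p alone 39 of the 46 members passed, against 55.5% of all genes tested, a share not matched for count. For 35 members the counts thus differed by less than a ratio of 2. Among genes that face no other gene, the same 4 were called, against 15.5% of genes there. By the adjusted p alone 18 of the 38 members among them passed, against 26.4% of genes there.

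All 4 called genes were highest in replicate 1 and lowest in replicate 2, the shallow library. Over the 11595 genes tested, 6.99% were called and highest in replicate 1, 10.5% in replicate 2 and 12.0% in replicate 3. Eif1ax had 722, 10 and 338 counts in replicates 1, 2 and 3, a ratio of 4.37 after scaling (adjusted chi-square p = 9.9e-13). Eif3g, a subunit of eIF3 with an RNA-binding domain, had 1058, 25 and 532 counts, a ratio of 2.56 (adjusted chi-square p = 2.1e-12). Eif4e had 439, 8 and 217 counts, a ratio of 3.32 (adjusted chi-square p = 3.2e-06). Eef1d had 1543, 37 and 810 counts, a ratio of 2.52 (adjusted chi-square p = 2.4e-15). Without replicate 2 none of the 46 was called, against 14.9% of all genes tested, and without replicate 1 only Eif1ax was, against 18.0%. Without replicate 3 the same 4 were called, against 11.8% of all genes tested. Among genes that face no other gene the same 4 were called without replicate 1, against 11.7% of genes there, and none without replicate 2, against 5.15%. The part of the low depth of replicate 2 in these calls was not tested.

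Exons of 8 members (17.4%) face exons of a gene on the other strand, against 16.2% of all genes. Eif3d, which can bind the cap of some mRNAs, faces Gm17638 over 625 of its 1910 exon bases. Eif3d had 1524, 62 and 943 counts over the libraries and Gm17638 11465, 684 and 15311 counts. More counts were thus assigned to the antisense gene in every library. Which strand was counted was not tested, and counts printed for an antisense gene may be fragments of its member's mRNA within the shared bases. Gspt1 faces 2610020C07Rik over 239 bases, and Gspt1 had 1638, 102 and 957 counts, against 3608, 285 and 5326 for this antisense gene. Each antisense gene faces no gene but that member, and each had its most counts in replicate 3, where the members did not. Elsewhere the member drew more than its facing gene, except for Eif3m in replicate 3. Eif5b, with 1643 shared bases, had 3019, 237 and 2728 counts, against 215, 24 and 166 for Rev1. For Eif3m, with 82 shared bases, the counts were 814, 42 and 497, against 270, 25 and 822 for Ccdc73. The other 4, Eif2b4, Eif4a2, Eif6 and Eef1b2, share between 9 and 204 bases with a facing gene. Values of these 8 members cannot be told apart from reads of the facing gene within the shared bases.

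**Figure D5:**
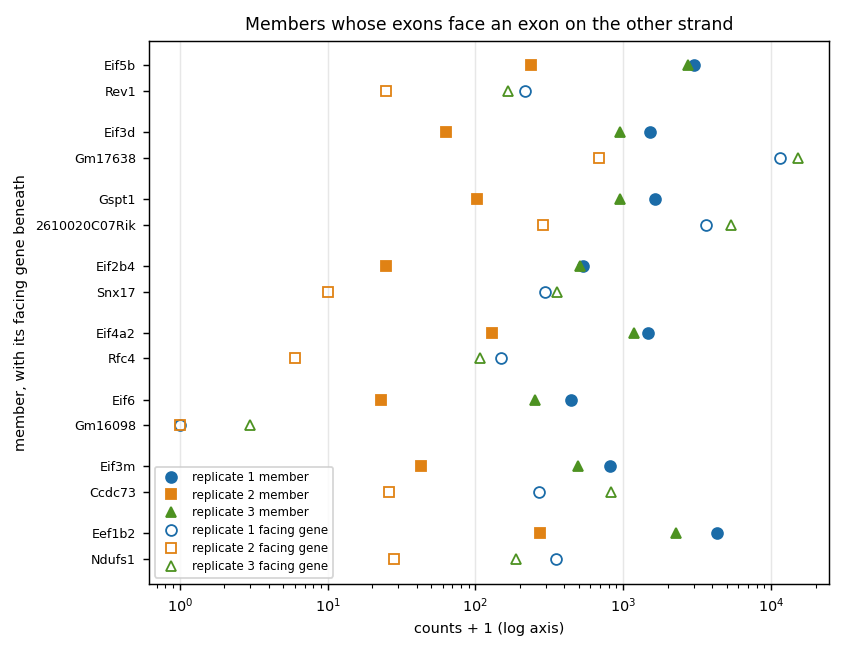
Counts plus 1 on a log axis for the 8 members whose exons face an exon on the other strand (filled) and for the facing gene beneath each (open), with 1 symbol for each of the 3 libraries. Gm17638 and 2610020C07Rik lie to the right of Eif3d and Gspt1 in all 3 libraries, and the other facing genes lie to the left of their member except Ccdc73 in replicate 3.

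A list of 38 other genes of translation, its kinases, modifiers and paralogs, was read beside the members. All 38 were in the files, 34 reached 1 TPM, 28 reached 10 TPM, and the median was 136 TPM for the members, against 28.8 TPM for the list. Several paralogs of abundant members were near or at no counts. Eef1a2, the paralog of Eef1a1 used in muscle and nerve, had 0 counts in each library. Eif4ebp3 had 1, 0 and 0 counts and Gspt2 16, 0 and 7. The X-linked Eif2s3x, which encodes the gamma subunit of eIF2, had 24.3, 26.4 and 10.9 TPM, below Eif2s1 and Eif2s2 in each library. The highest of the list by mean, though not in replicate 1, was Eif2ak1, a kinase of eIF2 alpha, at 142, 182 and 209.6 TPM, though its exons face another gene. Abcf1, an eIF2-associated ATPase, had 149, 139 and 90.6 TPM, and Larp1, which binds oligopyrimidine mRNAs, 127, 119 and 78.7 TPM. Of 34 tested, 8 passed the chi-square rule, of which 4 were highest in replicate 1 (Eif2ak3, Mknk1, Mcts1 and Hbs1l), 2 in replicate 2 (Eif4e3 and Eif5a2) and 2 in replicate 3 (Eif2ak1 and Dhps). The share called over the coding genes at 1 TPM or more was 24.8%, and 14 of the 38 face another gene. Over all genes tested, 6.99%, 10.5% and 12.0% were called and highest in replicates 1, 2 and 3.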

How the data were processed

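RNA-seq of 3 Th1 libraries was analysed. The deposited values are raw counts of fragments per gene, made by the authors with featureCounts 1.4.6-p4 on mm10 and GENCODE mouse release 13 with strand option 1 and without the option that counts multimapping reads, per the file headers. Which aligner made the alignments is not given in the sources used here. No value column was left unused (0). Gene names came from GENCODE mouse release 21, which matched 50376 of 50600 genes. The 224 others took 0.158%, 0.171% and 0.298% of counts.

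TPM was computed here from those counts and the deposited exon lengths. Library sizes for the chi-square test were scaled with TMM (edgeR 4.0.16), with DESeq2 1.42.0 size factors as an alternative, in genes with a mean count of at least 10 the lowest library being set to no less than 3 counts. Pairs were tested by sign-flip permutation on log2(TPM + 1), which understates ratios of low genes. Intervals and floors are 95% Poisson and cover counting error only. With 1 group, no quasi-likelihood contrast could be formed. Named genes are the 46 members, genes whose exons overlap theirs, and 38 listed translation genes. The members and lists were chosen with earlier results of these data known. Alternatives changed the scaling, filters, minimum, pseudocount and length, and left out each replicate.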

Additional observations from a re-analysis of the deposited data

How the results depend on the processing

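No paired analysis was possible because the libraries form 1 group. Of 108 recomputed values, 94 were classed as the same, 13 as moved and 1 as reversed. A pair ratio could change in size and still be classed as the same, as Eif2s2 over Eif2s1 was. The number of members called between libraries, 4, was 0 to 4 with each replicate left out, the 0 being without replicate 2, and also 0 to 4 over genes that face no other gene, where leaving out replicate 1 kept the same 4 genes. The members' median log2 level of 7.05 became 7.74 as TMM-scaled log2(CPM + 1) and 8.49 with TPM over genes that face no other gene. Their share of 1.48% became 3.85% on that scale and 2.27% as a share of counts. The log2 ratio of the highest to the lowest eIF3 gene, 2.23, was 2.20 to 2.26 with each replicate left out, 2.18 with medians over libraries and 1.42 with principal transcript lengths, and that of eIF2B, 2.37, was 1.49 with these lengths and 1.62 without its member that faces another gene. These lengths also brought Eif2s2 over Eif2s1 to 1.06, against 0.20, and Eif4a1 over Eif4e to 4.76, against 3.73. Eef1b2 over Eef1d became 2.19 with them, against 3.15. Leaving out replicate 2 brought Eif1ax over Eif1a to -0.44, against -1.13. With principal transcript lengths Gspt1 over Etf1 became 0.42, against -0.14, a reversal that follows from the length alone. Principal transcript lengths, and leaving out replicates among genes that face no other gene, were added after the data were seen. Levels in replicate 2 rest on 8 counts or more per member, so small differences in that library were not detectable at this depth.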
